A study of Homo sapiens with 6 samples.

Results

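Notch receptors, Jagged ligands and Notch target genes were compared between prostate stromal cells with lowered CAVIN1 and their vector controls. The 10 genes were taken by name: the receptors NOTCH1, NOTCH2 and NOTCH3, the ligands JAG1 and JAG2, the nuclear coactivator MAML2, and the target genes HES1, HES4, HEY1 and HEY2. All 10 were found among the 33117 genes of the table, and 8 passed a filter on low values, as did 13941 genes in all. HEY1 and HEY2 lay under it.

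The cells were WPMY-1, an immortalized stromal line from normal human prostate, grown in culture. The shCAVIN1 group had 3 libraries from cells stably transduced with a lentiviral short hairpin RNA against CAVIN1, which coats and shapes caveolae, small pockets of the cell membrane. The shCtrl group had 3 libraries from cells with the pLKO1 control plasmid. Both groups share the line, the viral delivery and puromycin selection. The labels speak of stable knock-down clones without giving their number. Only 1 hairpin was used, so an effect of CAVIN1 and an effect of that hairpin on other RNAs cannot be told apart. The design text names independent biological replicates without saying whether they came from separate transductions, so the tests measure the spread between these libraries.

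Notch receptors are cell surface proteins that bind Jagged or Delta-like ligands on a neighbouring cell. Binding exposes the receptor to proteases, which release its intracellular domain, and this domain joins the DNA-binding protein RBPJ and a Mastermind coactivator such as MAML2 to switch on HES and HEY genes. HES and HEY proteins are themselves repressors of transcription. In prostate and other organs, Notch signals pass within the stroma and between stroma and epithelium, and NOTCH3 is best known from the smooth muscle cells and pericytes of blood vessels.

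JAG1 and JAG2 changed in opposite directions, and so did HES1 and HES4, and NOTCH1 and NOTCH3. Of the 8 tested genes, 3 were higher in shCAVIN1 (NOTCH1, JAG2 and HES4), 3 were lower (NOTCH3, JAG1 and HES1) and 2 did not pass the test (NOTCH2 and MAML2), at an adjusted p under 0.05 in limma. Over all tested genes 55.5% passed, 27.3% higher and 28.2% lower, so a call by itself does not set a gene apart from the rest of the table. That share depends on the scaling: with libraries rescaled to TPM, each to the same sum, 24.5% of 14247 genes passed, 2254 higher and 1242 lower, and of the Notch genes 3 were higher and 2 lower. Without shCAVIN1 replicate 2 or 3 the count lower was 1, JAG1, while 44.7% and 45.6% of all tested genes passed in either direction. All shCAVIN1 libraries lay on 1 side of all shCtrl libraries for 6 of the 8 genes, and for 64.6% of all tested genes. The median log2 fold change of the 8 was 0.09, and that of all tested genes was -0.02. Values are FPKM, fragments scaled to the length of the transcript and the size of the library, which can be compared between genes of different length. Log2 fold changes are of FPKM + 0.5, shCAVIN1 over shCtrl, with limma's standard error (SE), and this added constant makes the fold change of a weakly expressed gene smaller. Folds without log2 are ratios of mean FPKM. In RNA from a whole culture, fewer cells that express a gene and less of its RNA per cell cannot be told apart.

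**Figure D1:**
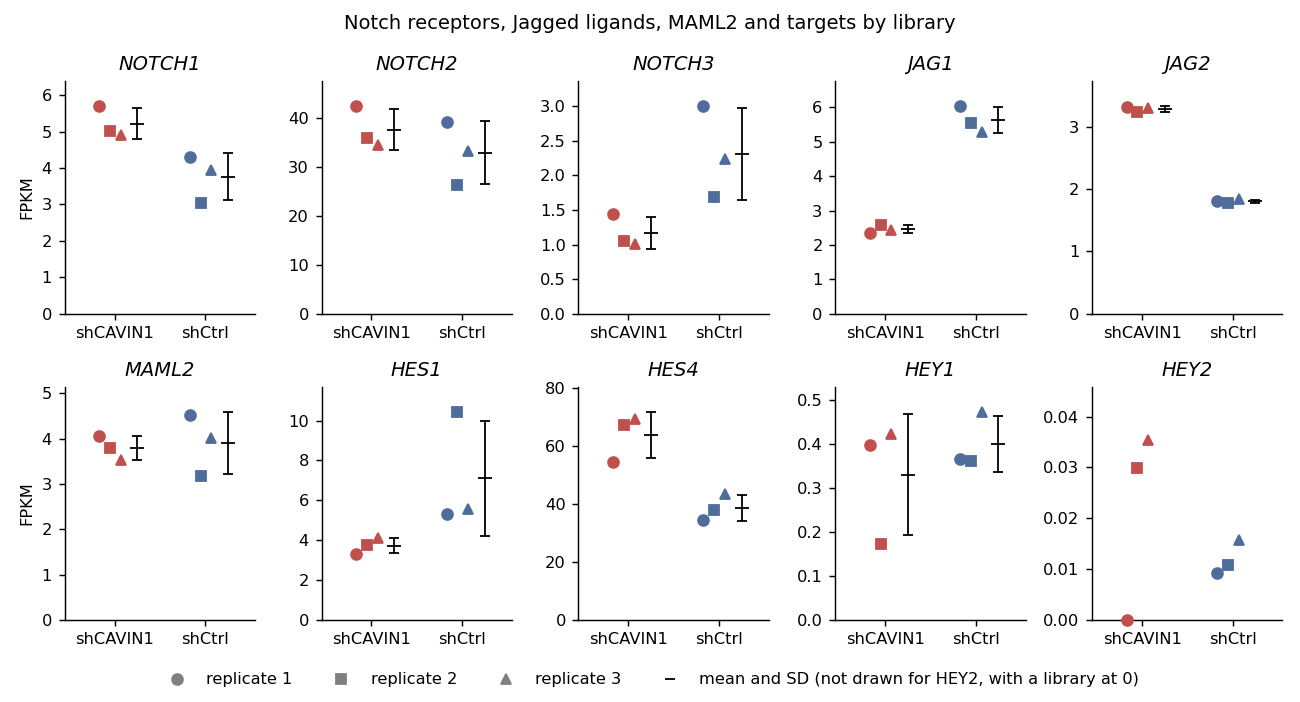
FPKM of each of the 10 genes (y axis, from 0, with its own scale in each panel) in the 3 shCAVIN1 libraries (red) and the 3 shCtrl libraries (blue), with symbols for the replicate number and bars for the mean and SD. The groups do not overlap for NOTCH1, NOTCH3, JAG1, JAG2, HES1 and HES4, and shCtrl replicate 2 stands at 10.4 FPKM for HES1, above the other 2 shCtrl libraries.

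The targeted gene, listed under its older symbol PTRF, averaged 141 ± 8.33 FPKM in shCAVIN1 and 336 ± 9.78 FPKM in shCtrl (SD, n = 3 each), so 42.0% of the control level remained. Stromal markers were expressed, as the label of the line says: vimentin (VIM) averaged 296 ± 13.8 FPKM in shCAVIN1 and 280 ± 28.1 FPKM in shCtrl, and the 6 stromal markers summed to 416 to 441 FPKM in shCAVIN1 and 445 to 520 FPKM in shCtrl. Of the others, THY1 fell to 62.7%, COL6A2 to 54.7% and COL6A1 to 83.4% of control, FAP was 1.46-fold higher and PDGFRB did not pass (limma adjusted p = 0.251). The part of these shifts in the Notch values was not tested. Endothelial markers were low, with a sum over 6 genes of 1.16 to 1.22 FPKM in shCAVIN1 and 0.260 to 0.396 FPKM in shCtrl. TEK led this sum and was 4.15-fold higher in shCAVIN1 (limma adjusted p = 0.000458). The other 5 lay under the filter. Of these, CDH5, VWF, KDR and ERG were higher in every shCAVIN1 library than in any shCtrl library. The groups overlapped for PECAM1, which reached at most 0.0683 FPKM in any library. Leukocyte markers summed to 0.827 to 1.13 FPKM in shCAVIN1 and 1.47 to 1.90 FPKM in shCtrl, with CD3E listed at 0 throughout. Of the epithelial markers the keratins KRT8 and KRT18 were expressed. The 6 epithelial markers summed to 240 to 255 FPKM in shCAVIN1 and 397 to 431 FPKM in shCtrl, mostly from KRT18. KRT18 fell to 56.9% of control, whereas KRT8 was 1.22-fold higher. EPCAM stayed under 0.57 FPKM and KLK3 was listed at 0.

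The receptors were dominated by NOTCH2 in both groups. NOTCH2 spans bases 119911553 to 120069626 of chromosome 1 (GRCh38, GENCODE 29, minus strand, as for all positions of genes given here unless the plus strand is named). It stood at 42.5, 35.9 and 34.6 FPKM in shCAVIN1 replicates 1 to 3 and at 39.2, 26.3 and 33.2 FPKM in shCtrl replicates 1 to 3. The groups overlapped, with shCtrl replicate 1 above shCAVIN1 replicates 2 and 3. Its log2 fold change of 0.20 did not pass (SE 0.154, limma adjusted p = 0.297), and the 95% interval was -0.17 to 0.58. Without shCtrl replicate 2 it was 0.06 (adjusted p = 0.695). A shorter relative of NOTCH2, listed as NOTCH2NL, averaged 10.9 ± 0.844 FPKM in shCAVIN1 and 7.30 ± 2.71 FPKM in shCtrl (limma adjusted p = 0.0877). Of the windows of 50 bases in the longest NOTCH2 coding transcript, 4.03% also occur in NOTCH2NLA and 4.65% in any other gene of that annotation. The NOTCH2NL row may pool several near-identical copies, so its value is uncertain, and a small part of the NOTCH2 reads could be shared with such copies.

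NOTCH1 was modestly higher in shCAVIN1. This receptor spans bases 136494433 to 136545786 of chromosome 9. It stood at 5.70, 5.02 and 4.92 FPKM in the shCAVIN1 libraries, and the shCtrl libraries had 4.31, 3.04 and 3.95 FPKM. Every shCAVIN1 library was above every shCtrl library. NOTCH1 was 1.39-fold higher (log2 fold change 0.43, SE 0.125, limma adjusted p = 0.0262). The NOTCH1 call was lost without shCAVIN1 replicate 1, 2 or 3 (adjusted p of 0.0823, 0.0591 and 0.0510) and without shCtrl replicate 3 (0.0509), at log2 fold changes of 0.37 to 0.47, and held without shCtrl replicate 2 (log2 0.30, adjusted p = 0.0239).

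NOTCH3 was lower in shCAVIN1. It spans bases 15159038 to 15200981 of chromosome 19. It stood at 1.44, 1.06 and 1.01 FPKM in the shCAVIN1 libraries, against 3.00, 1.68 and 2.23 FPKM in the shCtrl libraries. The groups did not overlap, though the highest shCAVIN1 library and the lowest shCtrl library were close. NOTCH3 fell to 50.6% of the control level (log2 fold change -0.73, SE 0.192, limma adjusted p = 0.0183). The call was lost without shCAVIN1 replicate 2 or 3 (adjusted p of 0.0590 and 0.0606) and without shCtrl replicate 3 (0.0509), at log2 fold changes of -0.74 to -0.67. Smooth muscle markers moved beside it: their sum over 6 genes was 347 to 373 FPKM in shCAVIN1 and 697 to 766 FPKM in shCtrl, set by TAGLN and CNN1, which were both lower, whereas ACTA2 was 2.0-fold higher and MYH11, DES and MYOCD stayed under 0.16 FPKM in every library. The part of smooth muscle state in the NOTCH3 value was not tested.

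NOTCH2, NOTCH1 and NOTCH3 kept this order in each library. Of the summed FPKM of the 4 Notch receptor genes, NOTCH2 held 85.2% ± 0.175 in shCAVIN1 and 83.8% ± 0.174 in shCtrl (SD, n = 3 each). NOTCH1 held 11.8% ± 0.327 in shCAVIN1 and 9.62% ± 0.383 in shCtrl, and NOTCH3 held 2.62% ± 0.231 in shCAVIN1 and 5.81% ± 0.546 in shCtrl. These shares are ratios within a library and do not depend on how libraries are scaled. NOTCH1 exceeded NOTCH3 by 3.96, 4.76 and 4.88 times in the shCAVIN1 libraries, against 1.43, 1.81 and 1.77 times in the shCtrl libraries.

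**Figure D2:**
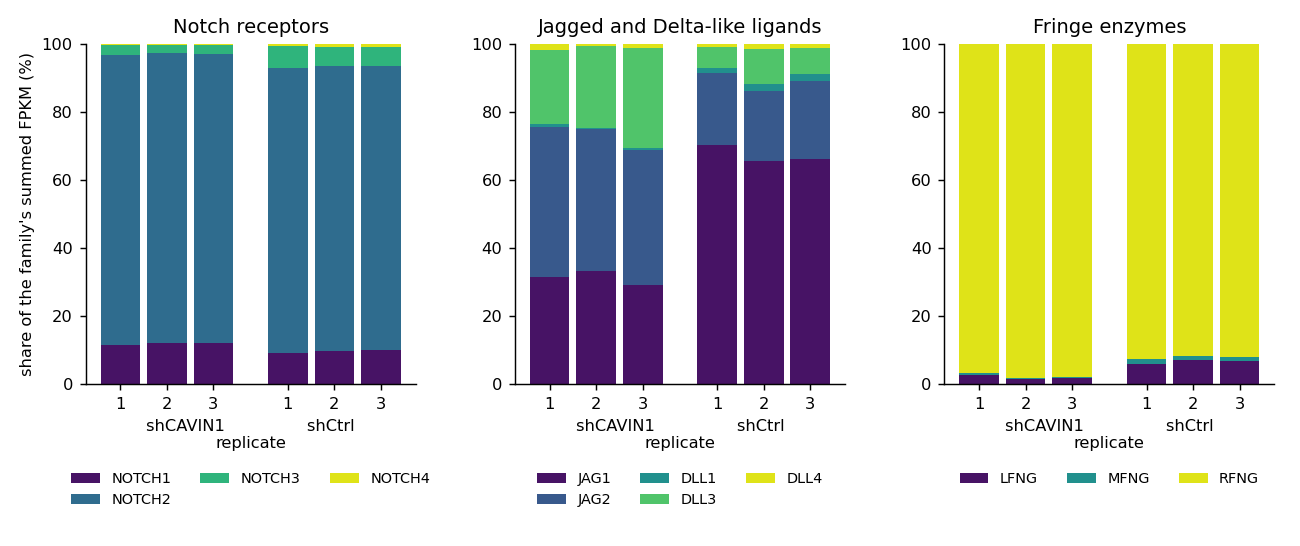
Stacked bars give the share (y axis, percent) of each gene in the summed FPKM of its family in every library, shCAVIN1 on the left and shCtrl on the right, for receptors, activating and Delta-like ligands, and Fringe enzymes. NOTCH2 holds over 83% of receptor FPKM in each library, and JAG1 holds 29.1% to 33.3% of ligand FPKM in shCAVIN1 and 65.4% to 70.4% in shCtrl.

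The genes with long transcripts varied together within each group, in a grouping by length that was chosen after the values were seen. NOTCH1, NOTCH2, NOTCH3 and MAML2 have longest coding transcripts of 9306, 11389, 8666 and 7106 bases. All 4 were highest in replicate 1 of their group, in shCAVIN1 and in shCtrl, and all 4 were lowest among the controls in shCtrl replicate 2. There, NOTCH1 lay 0.39 below the mean of the other 2 shCtrl libraries on the log2 scale, NOTCH2 lay 0.45 below, NOTCH3 0.50 below and MAML2 0.37 below. The median over all 1453 tested genes with a transcript of 7000 bases or more was -0.12 in the same library, and over 2992 genes under 2000 bases it was 0.12. The median log2 fold change between the groups was -0.13 in the long class and 0.02 in the short class. The part of transcript length in the receptor values was not tested.

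**Figure D3:**
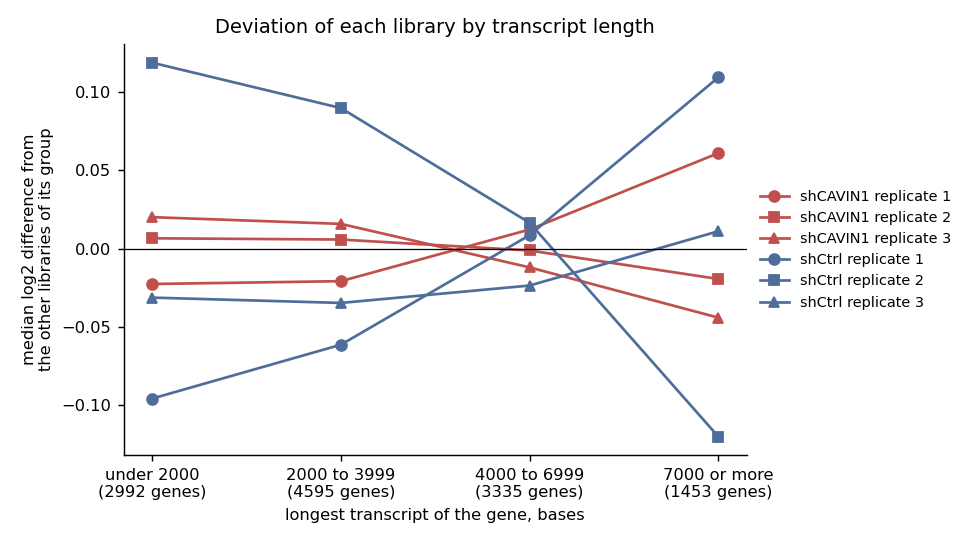
Median over genes of the log2 difference between a library and the mean of the other 2 libraries of its group (y axis), in 4 classes of transcript length (x axis), for shCAVIN1 (red) and shCtrl (blue) libraries. In genes of 7000 bases or more, shCtrl replicate 1 lies at 0.11 and shCtrl replicate 2 at -0.12, and the shCAVIN1 libraries lie between -0.04 and 0.06.

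The ligands switched rank between the groups. JAG1, the Jagged ligand whose mutation causes Alagille syndrome, spans bases 10637684 to 10673999 of chromosome 20. It stood at 2.35, 2.58 and 2.43 FPKM in the shCAVIN1 libraries, against 6.04, 5.56 and 5.29 FPKM in the shCtrl libraries. The shCAVIN1 libraries all lay far below the shCtrl libraries, with little spread in either group. JAG1 fell to 43.6% of the control level (log2 fold change -1.05, SE 0.0656, limma adjusted p = 7.51e-05), and the call held in all 15 other settings, at -1.17 to -0.94.

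JAG2, its close relative, spans bases 105140981 to 105168824 of chromosome 14. It stood at 3.32, 3.23 and 3.31 FPKM in the shCAVIN1 libraries, and the shCtrl libraries had 1.80, 1.77 and 1.83 FPKM. The libraries of each group lay within 0.1 FPKM of each other, far less than the gap between the groups. JAG2 was 1.82-fold higher (log2 fold change 0.72, SE 0.0522, limma adjusted p = 0.000125), and the call held in all 15 other settings, at 0.61 to 0.84. An overlapping transcript on the same strand, AL512356.1, shares part of its sequence with JAG2, and 7.28% of the JAG2 windows of 50 bases occur in other genes.

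The JAG1 to JAG2 ratio within a library was 0.710, 0.798 and 0.735 in shCAVIN1 and 3.36, 3.14 and 2.89 in shCtrl. JAG2 was thus the higher of the Jagged genes in each shCAVIN1 library and JAG1 in each shCtrl library. Their sum was 5.74 ± 0.0676 FPKM in shCAVIN1 and 7.43 ± 0.370 FPKM in shCtrl. Of 7 other ligands and receptors 2 were tested: DLL3 rose, and DLK2 did not pass (adjusted p = 0.0792). DLL3, a divergent ligand known to hold Notch back within the same cell rather than to activate it, stood at 1.65, 1.87 and 2.47 FPKM in the shCAVIN1 libraries, against 0.522, 0.890 and 0.593 FPKM in the shCtrl libraries. It was 2.99-fold higher (log2 1.09, SE 0.168, limma adjusted p = 0.00217). The summed FPKM of JAG1, JAG2, DLL1, DLL3 and DLL4 was 7.87 ± 0.431 in shCAVIN1 and 8.35 ± 0.326 in shCtrl, with DLL3 at 25.2% ± 3.91 of it in shCAVIN1 and 8.0% ± 2.25 in shCtrl.

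**Figure D4:**
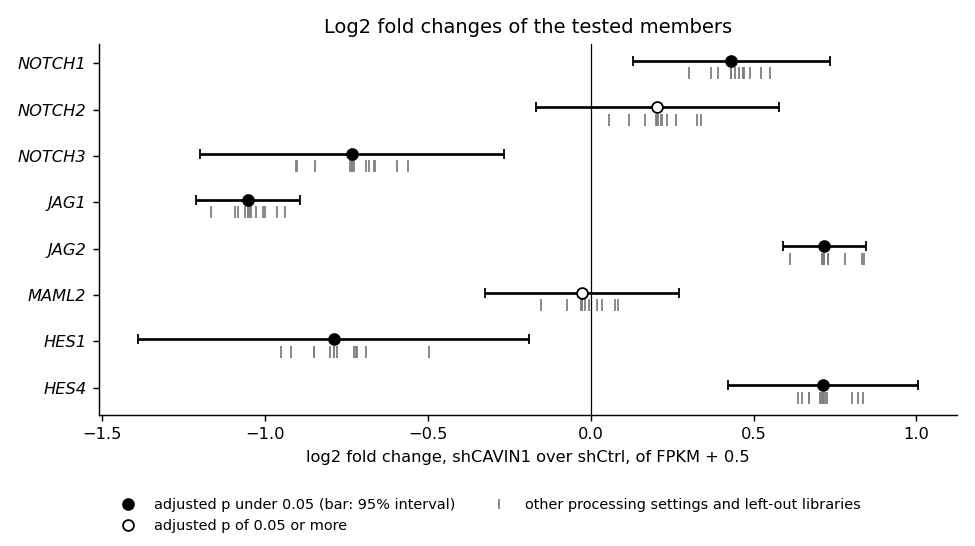
Log2 fold change, shCAVIN1 over shCtrl (x axis), of the 8 tested genes, with 95% intervals from limma and, as gray ticks below, the values under 15 other settings or left-out libraries (14 for NOTCH3). NOTCH1, NOTCH3, JAG1, JAG2, HES1 and HES4 are filled, with intervals away from 0. The bars are narrowest for JAG1 and JAG2, and that of HES4 runs from 0.42 to 1.01. NOTCH2 and MAML2 have intervals across 0.

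MAML2, a Mastermind coactivator that bridges the Notch intracellular domain to the transcription machinery, had no difference past the test. It spans bases 95976598 to 96343180 of chromosome 11. It stood at 4.06, 3.79 and 3.52 FPKM in the shCAVIN1 libraries, and the shCtrl libraries had 4.53, 3.17 and 4.01 FPKM. The groups overlapped throughout. Its log2 fold change of -0.03 did not pass (SE 0.123, limma adjusted p = 0.861), and the 95% interval was -0.33 to 0.27, and its sign turned positive under TPM and quantile scaling. AP000779.1 lies on the opposite strand of MAML2, as AL592301.1 does for NOTCH1, AL050403.2 for JAG1 and AL365259.1 for HEY2, and whether the counting used strand was not stated, so reads could not be told apart there.

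The target genes HES1 and HES4 parted. HES1, a widely used readout of Notch activity, spans bases 194136145 to 194138732 of chromosome 3, plus strand. It stood at 3.31, 3.78 and 4.09 FPKM in the shCAVIN1 libraries, against 5.31, 10.4 and 5.57 FPKM in the shCtrl libraries. The groups did not overlap, but shCtrl replicate 2 alone was far above the rest. HES1 fell to 52.4% of the control level (log2 fold change -0.79, SE 0.247, limma adjusted p = 0.0350). Without shCtrl replicate 2 the log2 fold change was -0.50 and the call held (adjusted p = 0.00666). It was lost without shCAVIN1 replicate 1, 2 or 3 (adjusted p of 0.0994, 0.0815 and 0.0658), with libraries rescaled to TPM (log2 -0.69, 0.118), with no filter (0.0589) and with robust variances (0.0573).

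HES4, a relative of HES1 found in humans but missing from mice, spans bases 998962 to 1000172 of chromosome 1. It stood at 54.6, 67.4 and 69.3 FPKM in the shCAVIN1 libraries, and the shCtrl libraries had 34.4, 38.0 and 43.4 FPKM. Every shCAVIN1 library was above every shCtrl library. HES4 was 1.65-fold higher (log2 fold change 0.71, SE 0.12, limma adjusted p = 0.00322), and the call held in all 15 other settings, at 0.64 to 0.84. Its level exceeded that of HES1 by 16.5, 17.8 and 17.0 times in the shCAVIN1 libraries, against 6.48, 3.64 and 7.80 times in the shCtrl libraries.

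RBPJ is known to bind DNA at the letters TGGGAA, usually as GTGGGAA. The promoters of HES1, HES4 and HEY2 are shown. HES1 and HES4 changed in opposite directions while both hold these letters, and HEY2 holds them too. They are given 5′ to 3′ on the strand of the gene, from RefSeq (GRCh38.p14), with GTGGGAA or TGGGAA in capitals. Positions count from the RefSeq start of the gene, -1 being the base before it. This start differs from that of the GENCODE spans given here. By those spans, the HEY2 stretch lies wholly inside its gene, and the HES1 and HES4 stretches lie partly inside theirs. The HES1 stretch runs from -120 to -1 (chr3:194136028-194136147, plus strand), the HES4 stretch from -120 to -1 (chr1:1000098-1000217, minus strand) and the HEY2 stretch from -50 to 10 (chr6:125749582-125749641, plus strand).
HES1: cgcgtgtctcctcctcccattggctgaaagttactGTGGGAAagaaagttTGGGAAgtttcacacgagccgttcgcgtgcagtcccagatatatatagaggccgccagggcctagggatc
HES4: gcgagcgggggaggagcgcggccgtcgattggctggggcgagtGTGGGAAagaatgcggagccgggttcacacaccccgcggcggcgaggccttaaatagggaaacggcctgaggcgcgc
HEY2: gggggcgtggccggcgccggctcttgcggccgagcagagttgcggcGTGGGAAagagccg

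HES1 holds TGGGAA at -84 and -70, HES4 holds it at -76, and HEY2 holds it at -3 and, on the opposite strand, at -213. All 3 share a run of 10 letters, GTGGGAAAGA, which was looked for after the promoters were read. Over both strands, TGGGAA occurs in 24.0% of 35097 RefSeq promoter windows, each of 300 bases like the windows searched here, GTGGGAA in 6.25% and the 10-letter run in 0.160%, which is 56 promoters. The promoter windows of the 6 genes NOTCH1, NOTCH2, NOTCH3, JAG1, JAG2 and MAML2 do not hold TGGGAA, on either strand. Of 7 other target genes listed below, 3 hold it: HES3, HES5 and HEYL. Promoter sequences were matched for 9 of the 10 genes, all but HEY1. These letters describe the windows and show no binding.

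The HEY genes were close to the floor of the table. HEY1, a Notch target best known from developing vessels and heart, spans bases 79764010 to 79767863 of chromosome 8. It stood at 0.397, 0.172 and 0.423 FPKM in the shCAVIN1 libraries, and the shCtrl libraries had 0.366, 0.360 and 0.472 FPKM. The groups overlapped, and p was 0.6 in an exact permutation test, two-sided, where 3 libraries against 3 allow no value under 0.1. HEY2, bases 125747664 to 125761269 of chromosome 6, plus strand, was listed at 0, 0.0300 and 0.0355 FPKM in the shCAVIN1 libraries, and the shCtrl libraries had 0.00931, 0.0107 and 0.0157 FPKM (exact two-sided permutation p = 0.4). Taking the shCtrl replicate 2 value as 1 fragment, and scaling by relative depths estimated from the lowest values of the table, HEY2 came to 0, 2.04 and 3.05 fragments in the shCAVIN1 libraries and to 1 and 1.03 fragments in shCtrl replicates 1 and 3. These fragment numbers rest on that assumed 1 fragment, and whether HEY2 differed between the groups could not be told from such values.

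Ordered by mean FPKM, the shCAVIN1 libraries had HES4 (63.7 ± 8.01) above NOTCH2 (37.7 ± 4.23), then NOTCH1 (5.21 ± 0.428), MAML2 (3.79 ± 0.27), HES1 (3.72 ± 0.391), JAG2 (3.28 ± 0.0473), JAG1 (2.45 ± 0.113), NOTCH3 (1.17 ± 0.237) and HEY1 (0.330 ± 0.138), with HEY2 last. MAML2 and HES1 differed there by less than their SD. In shCtrl the order was HES4 (38.6 ± 4.53), NOTCH2 (32.9 ± 6.45), HES1 (7.10 ± 2.88), JAG1 (5.63 ± 0.381), MAML2 (3.90 ± 0.683), NOTCH1 (3.76 ± 0.654), NOTCH3 (2.31 ± 0.664), JAG2 (1.80 ± 0.0294) and HEY1 (0.399 ± 0.0631), again with HEY2 last. Here HES4 and NOTCH2, HES1 and JAG1, MAML2 and NOTCH1, and NOTCH3 and JAG2 were neighbours within the SD of at least 1 of the pair.

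Around these genes, 65 further genes of the pathway were listed by step, and 52 were tested. Of these, 18 were higher, 18 were lower and 16 did not pass, so 69.2% passed, beside 55.5% of all genes. Their median log2 fold change was -0.07. After rescaling to TPM, 13 were higher and 9 lower. Over all genes 24.5% then passed, and 64.5% of those past the threshold were higher, beside 49.2% in the main test.

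The nuclear partner of the receptors fell. RBPJ, the DNA-binding protein of the pathway, averaged 16.7 ± 0.785 FPKM in shCAVIN1 and 29.4 ± 1.03 FPKM in shCtrl (log2 -0.80, SE 0.0502, limma adjusted p = 7.62e-05). Of 7 tested genes listed as coactivators, with RBPJ counted among them, 3 rose and 1, RBPJ, fell. Thus 57.1% passed, beside 55.5% of all genes. The Mastermind gene MAML1 was 1.29-fold higher and the acetyltransferases KAT2B and KAT2A were 1.41-fold and 1.10-fold higher. The MAML1 call was lost without any 1 of the shCAVIN1 libraries or without shCtrl replicate 3 (adjusted p of 0.0721 to 0.0776), and that of KAT2A in 7 of 15 other settings.

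Corepressors went both ways, with 4 of 12 higher and 5 lower, so 75% passed, beside 55.5% of all genes. Among the Groucho family, which HES proteins recruit to silence genes, TLE4 averaged 43.5 ± 1.55 FPKM in shCAVIN1 and 15.6 ± 1.38 FPKM in shCtrl (log2 1.45, SE 0.0688, limma adjusted p = 2.99e-05). TLE3 averaged 0.382 ± 0.0904 FPKM in shCAVIN1 and 2.95 ± 0.365 FPKM in shCtrl (log2 -1.97, SE 0.118, adjusted p = 6.70e-05), and TLE2 fell to 56.8% of control. The TLE4 to TLE3 ratio was 92.8 to 133 in shCAVIN1 libraries and 4.58 to 5.89 in shCtrl libraries. CIR1, a corepressor that binds RBPJ, fell to 56.3% of control.

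Of 8 tested enzymes that place sugars on the receptors, 5 were lower and 2 higher, beside 28.2% and 27.3% of all genes. Their summed FPKM overlapped between the groups, at 94.6 to 101 in shCAVIN1 and 96.0 to 99.4 in shCtrl. Fringe enzymes extend O-fucose on the receptors and so set which ligands they answer to. LFNG averaged 0.596 ± 0.116 FPKM in shCAVIN1 and 1.48 ± 0.159 FPKM in shCtrl (log2 -0.85, SE 0.113, limma adjusted p = 0.00119). RFNG, the main Fringe gene here, averaged 31.2 ± 2.62 FPKM in shCAVIN1 and 21.1 ± 0.522 FPKM in shCtrl (log2 0.55, SE 0.0672, adjusted p = 0.000837), and held 97.7% ± 0.786 of Fringe FPKM in shCAVIN1 and 92.2% ± 0.547 in shCtrl. The xylosyltransferase GXYLT2 fell to 36.6% of control and EOGT, which adds GlcNAc to EGF repeats, to 82.7%, a call lost under TPM (log2 -0.14, adjusted p = 0.507).

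Among 9 receptor proteases and subunits, 3 rose and 3 fell, so 66.7% passed, beside 55.5% of all genes. Subunits of gamma-secretase, which releases the intracellular domain, split by paralog: APH1A averaged 139 ± 1.29 FPKM in shCAVIN1 and 88.7 ± 5.46 FPKM in shCtrl (log2 0.64, SE 0.0539, limma adjusted p = 0.000202), and APH1B averaged 2.70 ± 0.191 FPKM in shCAVIN1 and 6.28 ± 0.565 FPKM in shCtrl (log2 -1.08, SE 0.0805, adjusted p = 0.000134). Nicastrin (NCSTN) was 1.65-fold higher. FURIN, which cleaves the receptors on their way to the surface, fell to 81.5% of control, a call lost under TPM (adjusted p = 0.446).

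Of 11 tested ubiquitin ligases and trafficking genes, 4 rose and 3 fell, so 63.6% passed, beside 55.5% of all genes. Among the ligases that ubiquitinate ligands, NEURL1B averaged 6.51 ± 0.376 FPKM in shCAVIN1 and 2.65 ± 0.228 FPKM in shCtrl (log2 1.15, SE 0.0746, limma adjusted p = 8.38e-05), and MIB1 averaged 17.6 ± 0.780 FPKM in shCAVIN1 and 25.1 ± 0.468 FPKM in shCtrl (log2 -0.51, SE 0.0454, adjusted p = 0.000260). MIB2, at 14.2 ± 1.07 FPKM in shCAVIN1 and 13.6 ± 0.462 FPKM in shCtrl, did not pass (adjusted p = 0.475), and NEURL1 lay under the filter. NUMB, an endocytic adaptor that opposes Notch, was 1.42-fold higher. FBXW7, a ligase that marks the intracellular domain for destruction, fell to 74.0% of control. The MIB1 and FBXW7 calls were lost under TPM (adjusted p of 0.0966 and 0.207).

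Of 7 other HES, HEY and target genes, 3 were tested. HES7, the oscillating repressor of the somite clock, averaged 0.342 ± 0.125 FPKM in shCAVIN1 and 2.36 ± 0.415 FPKM in shCtrl (log2 -1.76, SE 0.156, limma adjusted p = 0.000247). HES6, which opposes HES1, averaged 8.89 ± 0.957 FPKM in shCAVIN1 and 6.26 ± 0.497 FPKM in shCtrl (log2 0.47, SE 0.0916, adjusted p = 0.00570). NRARP, a feedback inhibitor induced by Notch, averaged 0.809 ± 0.0426 FPKM in shCAVIN1 and 0.905 ± 0.180 FPKM in shCtrl and did not pass (adjusted p = 0.521). HES2, HES5 and HEYL stayed under 0.08 FPKM in every library and HES3 was listed at 0.

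**Figure D5:**
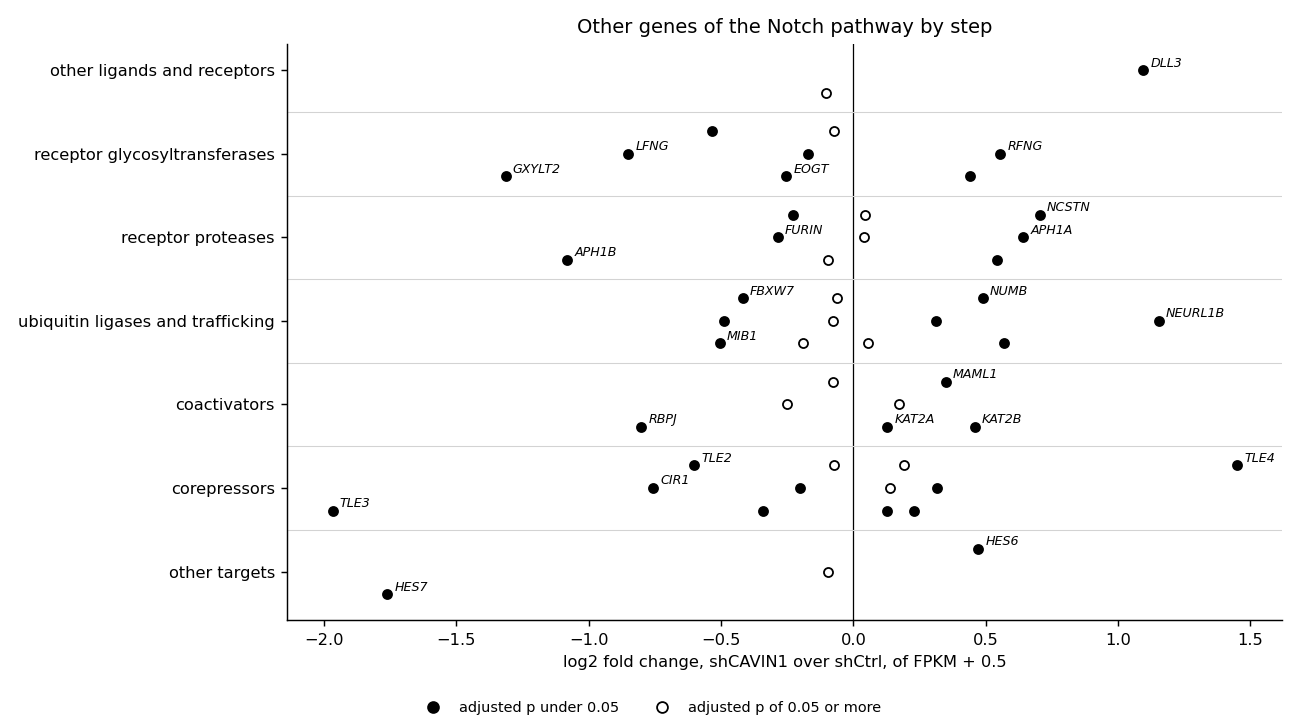
Log2 fold change, shCAVIN1 over shCtrl (x axis), of the 52 tested further pathway genes, in rows by step of the pathway, filled where the adjusted p was under 0.05. Each step with over 2 tested genes has filled points on both sides of 0, from TLE3 at -1.97 to TLE4 at 1.45.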

How the data were processed

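RNA sequencing measured total RNA of 6 libraries, 3 per group, made per the labels' protocols with an Illumina stranded kit. The authors deposited FPKM values, 1 column per library. The submitters' processing notes name GRCh38, CASAVA, bcl2fastq 2.17.1.14, TopHat and TopHat2 (version given as 2.2.5). The quantifier, its annotation, its strand setting and any filters were not given in the sources used here. FPKM keeps no fragment total, so absolute depth is unknown and no counting interval is given. Relative depths of 0.71 to 1.1 (shCtrl replicate 2 as 1) were read from the most common ratio of values under 0.02 FPKM.

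Genes with a mean of at least 0.5 FPKM were tested with limma 3.58.1 (R 4.3.3) after taking log2(FPKM + 0.5) (group as the only term, trended variances) and Benjamini-Hochberg adjustment over all tested genes. The code was tested on simulated data. HEY1 and HEY2 had an exact permutation test. Members and lists were chosen with earlier results of these data known. Named pathway genes are up to 4 per list with the lowest adjusted p, and the others named were chosen after their values were seen. Positions, transcripts and 50-base windows came from GENCODE 29, promoters from RefSeq. Transcript lengths were matched for 88.8% of tested genes. Alternatives changed the pseudocount, filter, scaling, variances, block or libraries.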

Additional observations from a re-analysis of the deposited data

How the results depend on the processing

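JAG1, JAG2 and HES4 kept direction and call in each of 15 other settings. The count of members higher in shCAVIN1 was 3, and 2 to 3 with a library left out. The count lower was 3, and 1 to 3 with a library left out, being 1 without shCAVIN1 replicate 2 or 3. Over all tested genes 55.5% passed in the main test, and 44.7% to 61.1% with a library left out. The share was 44.7% without shCAVIN1 replicate 2 and 45.6% without shCAVIN1 replicate 3. Other pathway genes lower numbered 18, and 9 after rescaling to TPM, where 24.5% of all tested genes passed. That scaling moved the median of all tested genes to 0.09, against -0.02 on the deposited values. It divides each library by its summed FPKM. The sums were 840887, 803134 and 817513 in shCAVIN1 replicates 1 to 3. In shCtrl replicates 1 to 3 they were 899713, 758837 and 1043843. MAML2, which did not pass, had a log2 fold change of 0.0826 under TPM and 0.0342 under quantile normalization, and -0.153 to 0.0738 with a library left out. HEY1 ran between -0.210 and 0.0186 in the same way. NOTCH3 fell below the filter at a mean of 2 FPKM. The cause of the unequal sums, and that of the shifts with a library left out, was not tested. With the replicate number as a block, 3 members were higher and 3 lower, and 16 and 16 of the other pathway genes. Over all tested genes 51.4% then passed. Deviations of same-numbered libraries correlated at 0.0936, 0.0714 and -0.0282, and those of differently numbered libraries at -0.146 to 0.0772. Whether same-numbered libraries shared a batch or handling was not tested. Values under the filter, HEY1 and HEY2 among them, are the least precise.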

Other observations

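Of the 13 pathway genes under the filter, 7 had groups that did not overlap, 3 of them lower and 4 higher in shCAVIN1. The groups did not overlap for 64.6% of all tested genes, and no such share was taken over genes under the filter. Without that share, whether the count sets these genes apart from others under the filter cannot be told. NOTCH4, the receptor best known from endothelium, averaged 0.144 ± 0.0399 FPKM in shCAVIN1 and 0.306 ± 0.00931 FPKM in shCtrl. The ligand DLL1 averaged 0.0440 ± 0.0240 FPKM in shCAVIN1 and 0.152 ± 0.0120 FPKM in shCtrl, and the Fringe gene MFNG averaged 0.136 ± 0.0736 FPKM in shCAVIN1 and 0.304 ± 0.0250 FPKM in shCtrl (SD, n = 3 each). The Mastermind gene MAML3 averaged 0.383 ± 0.00719 FPKM in shCAVIN1 and 0.230 ± 0.0347 FPKM in shCtrl. NEURL1, a ligase of ligands, averaged 0.342 ± 0.0259 FPKM in shCAVIN1 and 0.273 ± 0.0160 FPKM in shCtrl, and the target HEYL averaged 0.0367 ± 0.0184 FPKM in shCAVIN1 and 0.0215 ± 0.00241 FPKM in shCtrl. DNER, an atypical ligand, was listed at 0.0599, 0.0389 and 0.0617 FPKM in the shCAVIN1 libraries, and the shCtrl libraries had 0.0241, 0 and 0.0138 FPKM. For each of them p was 0.1 by exact permutation (two-sided), which is as low as 3 libraries against 3 allow. These genes were named after their values were seen. The ratio of NOTCH2 to NOTCH2NL was 3.58, 3.45 and 3.32 in the shCAVIN1 libraries and 3.97, 5.88 and 4.40 in the shCtrl libraries. The NOTCH2NL value may pool several near-identical copies.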
